A study of Homo sapiens with 2 samples.

Results

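The transcripts of 8 genes that set the level of polyamines in the cell, ODC1, AMD1, SRM, SMS, OAZ1, OAZ2, AZIN1 and SAT1, were examined for sites bound by RBMS3, an RNA-binding protein. The genes were chosen by name for their place in the pathway, with earlier results of these data known. Their sites are the same-strand entries of 1 list of RBMS3 crosslink sites that fall inside these genes in GENCODE release 44 (hg38), and they number 56 of the 27706 sites in the list. The list comes from CLIP-seq in the triple-negative breast cancer line MDA-MB-231, stably transduced with a lentivirus that expressed FLAG-tagged RBMS3 from the EF1a promoter. Cells were irradiated with ultraviolet light of 254 nm at 400 mJ/cm2, and RNA held by the tagged protein was recovered on anti-FLAG beads. There was 1 group of 2 biological replicates with no other treatment, and the authors pooled the tags of both before calling sites, so no value here has an error between replicates. Replicate 2 carries MDA-MB-231 in its title and MDA-MB-232 in its source and cell line labels, and its share of the pooled tags is not known. No control library was analysed here, and the protein was the introduced, tagged form.

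Polyamines are small positively charged molecules that bind nucleic acids and that dividing cells need. ODC1 (ornithine decarboxylase) makes putrescine, AMD1 supplies the aminopropyl donor by decarboxylating S-adenosylmethionine, and SRM and SMS use that donor to make spermidine and spermine in turn. Antizymes, encoded by OAZ1 and OAZ2, bind ODC1 and send it to the proteasome, and polyamines promote the ribosomal frameshift that makes a full-length antizyme. AZIN1 resembles ODC1, lacks its activity and holds antizyme away from it. SAT1 acetylates spermidine and spermine, which marks them for oxidation or export. RBMS3 binds RNA that is rich in A and U, often in the 3′ untranslated region (3′UTR) of an mRNA.

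A site is a single deleted base. Reverse transcriptase can skip the base at which a remnant of protein is still attached, although deletions have other origins too. Each site comes with its count of unique tags, the sequenced RNA fragments lying over it, and with how many of these tags lack the base. The stretches around 10 of the sites are printed because they hold the site with the most deletions of each gene (AZIN1 excepted), that at each of the other signals of OAZ1, and the proximal site of OAZ2 near an annotated end. They are the hg38 sequence of the transcript strand, 5′ to 3′, with 14 nt on each side of the deletion, and in SRM and at both OAZ2 sites they run past an annotated end. Capitals mark the deleted base and any complete poly(A) signal, AATAAA or ATTAAA, the hexamer that directs cleavage of the mRNA and addition of its tail.
ODC1 (chr2:10440396-10440424, minus strand): ttgtgacctgttttTaaAATAAAgtatct
AMD1 (chr6:110895674-110895702, plus strand): cgcttcAATAAAagTttaattgtctagtg
SRM (chr1:11054583-11054611, minus strand): caaacacgtgtattTatagcaaagattgg
SMS (chrX:21994781-21994809, plus strand): tataagagagagttAaaaaaaaataggat
OAZ1, the first signal (chr19:2273208-2273236, plus strand): tgttgtaatcgtgcAAATAAAcgctcact
OAZ1, the second signal (chr19:2273301-2273329, plus strand): attctaAATAAAaaTttatattttacttt
OAZ1, the third signal (chr19:2273455-2273483, plus strand): gctctccaaaagccAATAAAgtgattaca
OAZ2, distal (chr15:64687569-64687597, minus strand): tcAATAAActgattTaaagttgtggttgg
OAZ2, proximal (chr15:64688480-64688508, minus strand): acatgtaatcaccaAtagtaaatgaagat
SAT1 (chrX:23786169-23786197, plus strand): tttctgtttgattcTtttttAATAAActa
A deletion inside a run of 1 base cannot be placed within the run, and the list puts it at the lowest coordinate, which is the first base of the run on the plus strand and the last on the minus strand. This touches 46 of the 56 sites.

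All 8 genes had RBMS3 sites, and each had at least 1 in its 3′UTR. A same-strand site was present in 8 of 8 members, compared with 37.6% of 20046 protein-coding genes, and a 3′UTR site in 8 of 8, compared with 31.8%. The members were chosen with earlier results of these data known, so these counts describe them and do not test the pathway. Among 28 other pathway genes, 10 had a same-strand site and 9 a 3′UTR site. Only 1 member site lay outside an annotated 3′UTR, in the 5′UTR of AZIN1. Thus 98.2% of the 56 member sites (95% Wilson interval 90.6 to 99.7%) were in 3′UTRs, compared with 76.6% of the whole list. These shares cover unlike sets, since the list also holds intergenic sites, which the rule for member sites leaves out. The share among sites inside protein-coding genes was not computed. Wilson intervals here and below cover counting error only, and sites of a gene share tags, so they are not independent.

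The numbers of sites were uneven. OAZ1 held 20, AZIN1 14, OAZ2 9, ODC1 5, AMD1 3, SRM and SAT1 2 each, and SMS 1, with a median of 4 per member against 3 over the 6371 genes that had a 3′UTR site. The antizymes and the antizyme inhibitor thus held most of the sites. At least 9 sites were found in 3 of 8 members (3.05% of all protein-coding genes), at least 14 in 2 of 8 (1.02%) and at least 20 in 1 of 8 (0.299%). These limits equal the counts of OAZ2, AZIN1 and OAZ1 themselves. The number of members that reached each limit was therefore fixed by the choice of limit, and only the shares of all genes are informative. Across the 6371 genes the number of sites went with the highest tag count of the gene (Spearman's rho = 0.724, a description across genes, which share libraries and depth). Transcript abundance was not analysed here, so many tags from an abundant transcript and many from a strongly bound one cannot be told apart.

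**Figure D1:**
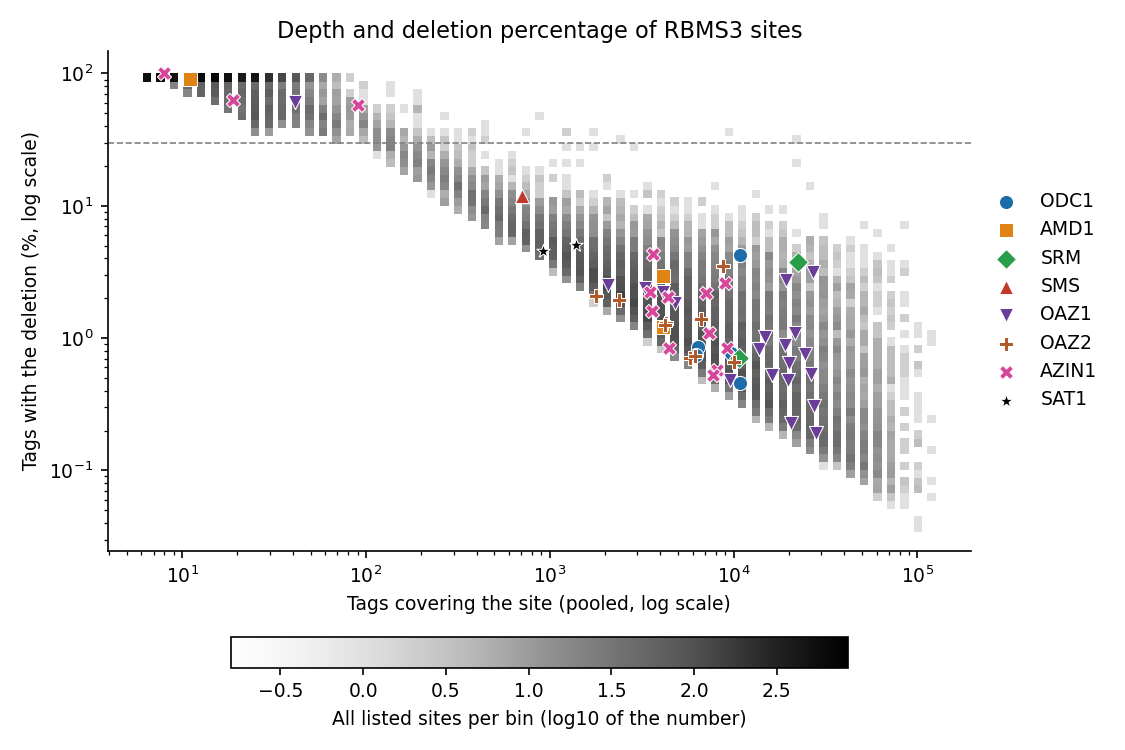
Tags that cover a site (x axis, log scale) against the percentage of them with the deletion (y axis, log scale) for the 56 sites in the 8 polyamine genes (coloured symbols) over all 27706 listed sites (grey bins). The dashed line is at 30%. Of the member sites, 51 lie below it, with 708 to 27980 tags, and 5 lie above it, with 8 to 90 tags.

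The member sites fell on both sides of 30% of tags with the deletion, as the plot of tags against percentage shows. Below it were 51 sites, or 91.1% of member sites, where the whole list has 70.1%. Among 3′UTR sites alone the shares were 92.7% (interval 82.7 to 97.1%) and 87.1%. The 51 sites had a median of 7763 tags and of 79 deletions. Above it were 5 sites with 8 to 90 tags, in AMD1, OAZ1 and AZIN1, so that 3 of 8 members had such a site, beside 21.1% of all protein-coding genes. These 5 rest on few tags. They were 10 of 11 tags in the AMD1 3′UTR, 25 of 41 in OAZ1, and 8 of 8, 12 of 19 and 52 of 90 in AZIN1. The other 51 sites carry the pattern described below.

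ODC1 (chromosome 2, 10439968 to 10448327, minus strand) had 5 sites in a single group in the middle of its 756-nt 3′UTR, and it is the only member without a site within 100 nt of a downstream annotated 3′ end. At position 10440410, a T was missing from 455 of 10784 tags (4.22%, interval 3.86 to 4.62%). The other 4 sites, at 10440423, 10440406, 10440395 and 10440391, had 55 of 6433, 50 of 10859, 75 of 9664 and 47 of 6262 tags, which is 0.460 to 0.855%. One deletion thus stood above the rest of the group, and its interval overlapped none of theirs. All 5 lay around the AATAAA that starts 317 nt past the stop codon, the one in the printed stretch, which is 434 nt before the canonical end. GENCODE also ends shorter ODC1 transcripts here, at 10440425 and 10440427, and the sites were 2 to 34 nt past the former. A second AATAAA, 730 nt past the stop codon and 21 nt before the canonical end, had no site within 50 nt.

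AMD1 (chromosome 6, 110874770 to 110898879, plus strand) showed the opposite arrangement. Its 2097-nt 3′UTR holds 4 AATAAA and 2 ATTAAA, and only the last AATAAA, 28 nt before the canonical end, had sites with low percentages near it. These were 121 of 4138 tags at 110895688 (2.92%, interval 2.45 to 3.48%) and 50 of 4105 tags at 110895670 (1.22%, interval 0.925 to 1.60%). Both were a deleted T in a run of 3, one 8 nt after the first base of the signal and the other 10 nt before it. The site of 10 deletions in 11 tags was far from either, at 110894737, 971 nt from the next end.

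SRM (chromosome 1, 11054584 to 11060020, minus strand) had the second highest number of deletions among the strongest sites of the members and no poly(A) signal at all in its 276-nt 3′UTR. A T was missing from 843 of 22527 tags at 11054597, 8 nt before the annotated end (3.74%, interval 3.50 to 3.998%). At 11054625, 36 nt from the end, 75 of 10641 tags did (0.705%, interval 0.563 to 0.883%). Within 50 nt of these sites there was no AATAAA, no ATTAAA and none of 10 variants of the hexamer. The SRM 3′UTR was also the poorest in A and T among the members, at 37.0%, compared with 50.9 to 66.9% in the other 7.

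SMS (chromosome X, 21940709 to 21994837, plus strand) had 1 site, the least covered of the low-percentage sites. At 21994795, 42 nt from the end, 84 of 708 tags lacked an A (11.9%, interval 9.69 to 14.5%). The deletion lay in a run of 9 A, seen in the printed stretch. The nearest signal was an ATTAAA that starts 22 nt downstream, and no AATAAA was present in the 486-nt 3′UTR. A run of at least 6 A within 50 nt downstream of the deletion was present at this site and at no other of the 55 member 3′UTR sites, compared with 11.0% of 21222 in the list. Oligo(dT) was used to capture and prime the RNA, and whether this run of A has a part in the SMS site was not tested.

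**Figure D2:**
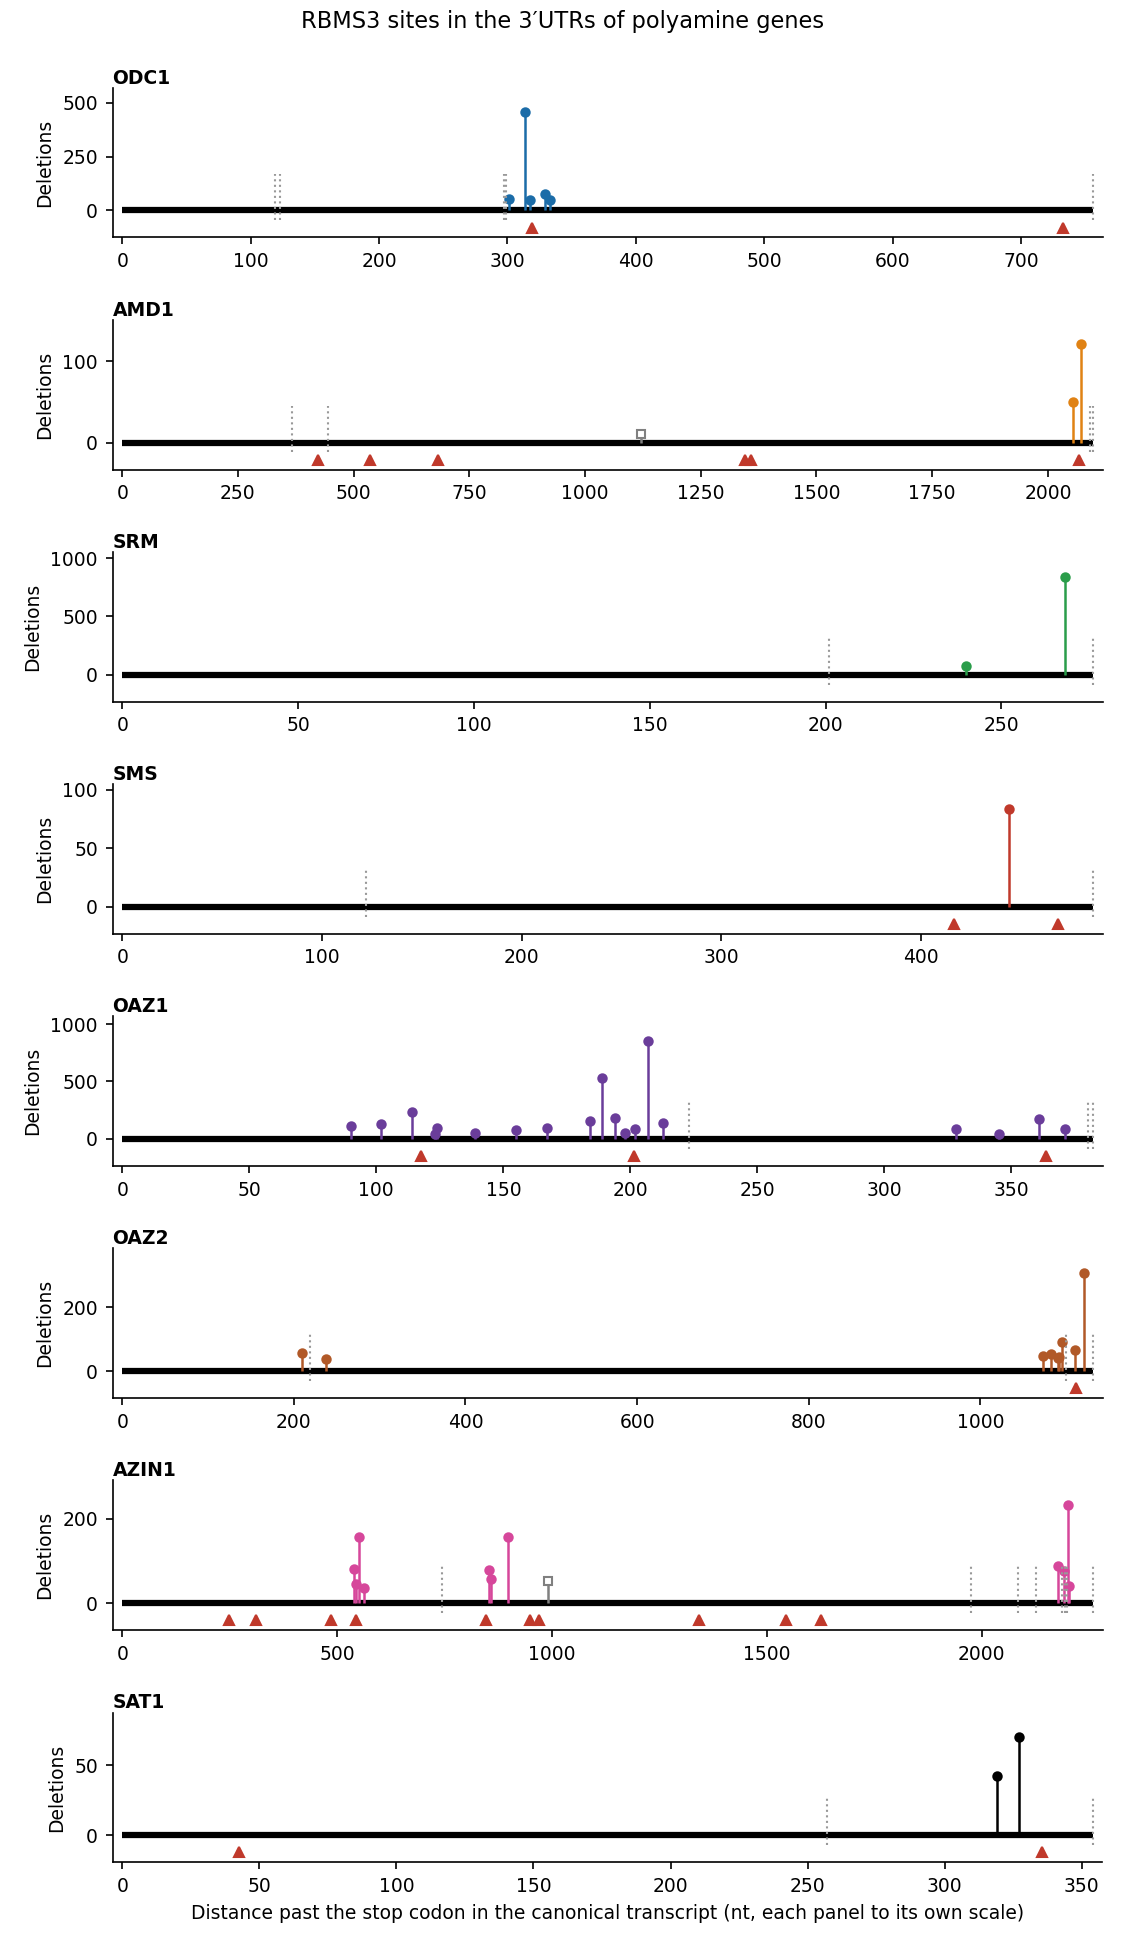
Deletions at each site (y axis, number of tags with the deletion) along the canonical 3′UTR of each of the 8 genes (x axis, nt past the stop codon, each panel to its own scale). Filled circles are sites under 30%, open squares sites at 30% or more, red triangles AATAAA or ATTAAA, dotted lines annotated 3′ ends of transcripts with a 3′UTR. OAZ1 has sites at each of its 3 signals, ODC1 at the first of 2 signals only, and AMD1 and SAT1 at the last only.

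OAZ1 (chromosome 19, 2269509 to 2273490, plus strand) was the most densely marked member. Apart from the 25 of 41 tags at 2273057, which is coding sequence in the canonical transcript and 3′UTR in another, its 19 sites lay in the 382 nt after the stop codon. Each of the 3 AATAAA there, starting 115, 199 and 361 nt past the stop codon, had sites within 50 nt, numbering 7, 9 and 4, with 1 site counted at both of the first 2 signals. The tags rose and fell with the signals. They reached 21508 at 114 nt, fell to 2079 at 139 nt, rose to 27980 at 198 nt, were down to 4805 at 328 nt and came back to 19139 at 361 nt. The 3 signals therefore each sat at a separate local maximum of tags among the sites.

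**Figure D3:**
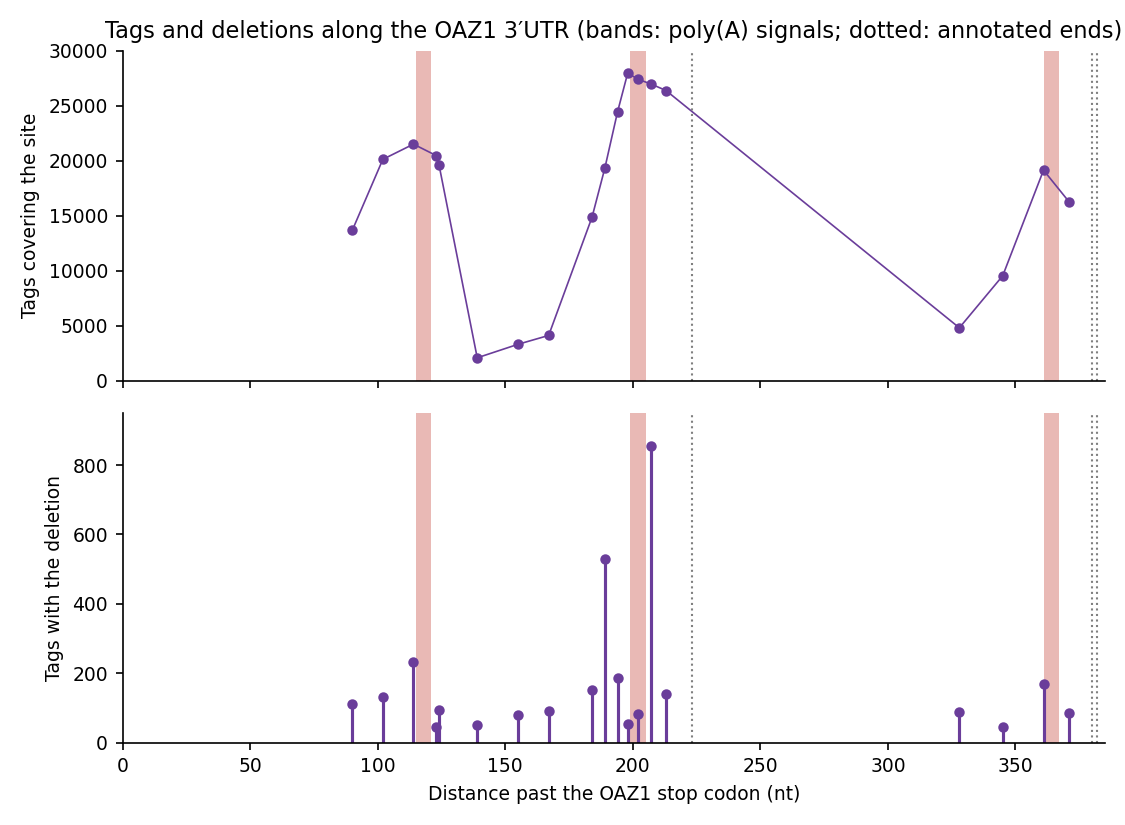
Tags that cover each OAZ1 site (top, number) and tags with the deletion (bottom, number) against distance past the OAZ1 stop codon (nt). Bands mark the 3 poly(A) signals and dotted lines the annotated 3′ ends at 223, 380 and 382 nt. The tag counts peak at 21508, 27980 and 19139 beside the 3 bands, and the bottom panel is highest at the second band, with 855 deletions.

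The deletions in OAZ1 were not spread as the tags were. The strongest site, at 2273315, was a deleted T 8 nt after the first base of the second signal and 16 nt before the end at 2273331, with 855 of 26989 tags (3.17%, interval 2.97 to 3.38%). The next, at 2273297, was a deleted T 10 nt before the same signal, with 530 of 19304 tags (2.75%, interval 2.52 to 2.99%). Between these 2 the tag count was highest while the percentage fell, to 54 of 27980 tags at 2273306 (0.193%, interval 0.148 to 0.252%). At the first signal the strongest site, 2273222, had 233 of 21508 tags (1.08%, interval 0.953 to 1.23%), and at the third, 2273469, 170 of 19139 (0.888%, interval 0.765 to 1.03%). By number, deletions were thus highest around the second signal. By percentage this did not hold for every site between the signals, where coverage was thin. Such sites had 52 of 2079 tags at 2273247 (2.501%, interval 1.91 to 3.27%), 79 of 3308 at 2273263 (2.39%, interval 1.92 to 2.97%) and 89 of 4805 at 2273436 (1.85%). The intervals of the first and second overlapped that of the strongest site, the second only at its limit. No OAZ1 transcript with a 3′UTR is annotated to end within 100 nt past the first signal. All 20 sites also lie on the same strand within a longer protein-coding gene, ENSG00000273734, and tags from its transcripts could not be told from those of OAZ1.

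OAZ2 (chromosome 15, 64687573 to 64703281, minus strand), the other antizyme, had 9 sites in 2 groups. The distal group held 7 sites around the only AATAAA of its 1131-nt 3′UTR, 17 nt before the canonical end. The strongest was a deleted T at 64687583, 10 nt from the end, with 308 of 8785 tags (3.51%, interval 3.14 to 3.91%). The other 6 ranged from 67 of 10095 tags (0.664%) to 46 of 2379 tags (1.93%), and none of their intervals reached that of the strongest. The proximal group lay 210 and 238 nt past the stop codon, with 55 of 4261 tags at 64688494 and 37 of 1788 at 64688466. The former was 9 nt before an annotated end at 64688485 and 2 nt before an AGTAAA, a variant of the signal, as the printed proximal stretch shows.

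AZIN1 (chromosome 8, 102826111 to 102893864, minus strand) had its 14 sites in 6 groups along the transcript, the most of any member. In its 2259-nt 3′UTR, which holds 8 AATAAA and 2 ATTAAA, the first group was 4 sites around the AATAAA 542 nt past the stop codon. The strongest of them had 156 of 7069 tags at 102828015 (2.21%, interval 1.89 to 2.58%), and they were 181 to 205 nt before an annotated end at 102827823. Next came 78 of 3522 tags at 102827713 and 57 of 3583 at 102827708, after the AATAAA at 845 nt, and in the same group 156 of 3626 tags at 102827668 (4.30%, interval 3.69 to 5.01%). The distal group, which includes the highest tag count of the gene, had no AATAAA or ATTAAA within 50 nt. It held 233 of 8977 tags at 102826365 (2.60%, interval 2.29 to 2.95%), 77 of 9150 at 102826375, 89 of 4385 at 102826389 and 41 of 7763 at 102826364. A variant, GATAAA, started 12 nt before the strongest of these. Of the 8 AATAAA, 3 had a low-percentage site within 50 nt. The 5′UTR site, at 102863975, had the deletion in 8 of 8 tags (interval 67.6 to 100%).

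SAT1 (chromosome X, 23783173 to 23786210, plus strand), the gene of the catabolic arm, had 2 sites near its end and none elsewhere. A T was missing from 70 of 1386 tags at 23786183, 27 nt before the end (5.05%, interval 4.02 to 6.33%), and from 42 of 921 at 23786175, 35 nt before it (4.56%, interval 3.39 to 6.11%). These intervals overlapped. Both sites preceded the distal AATAAA, by 6 and 14 nt, and the run of T with its signal is seen in the printed stretch. The other AATAAA of the 354-nt 3′UTR, 40 nt past the stop codon, had no site.

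When the strongest 3′UTR site of each member, meaning that with the most deletions, was ordered by its deletion percentage, AZIN1 came lowest (2.60%), followed by AMD1 (2.92%), OAZ1 (3.17%), OAZ2 (3.51%), SRM (3.74%), ODC1 (4.22%), SAT1 (5.05%) and SMS (11.9%). Each interval overlapped that of the gene before it, except that SMS stood apart from SAT1. The place of AZIN1 depends on that choice, since its site at 102827668, with fewer deletions, had 4.30%. The 2 members with the highest percentages had the fewest tags. Their deletions also lay in the longest runs of 1 base, of 9 nt in SMS and 6 nt in SAT1. The run was 5 nt in ODC1 and in AZIN1, the lowest of the order, and 3 nt in AMD1, OAZ1, OAZ2 and SRM. Whether run length has a part in the order was not tested. In the whole list the lowest percentage of any site was 3.78% where 500 to 1000 tags covered it, as in SMS, 1.86% at 1000 to 2000 tags, as at the strongest SAT1 site, and 0.0834% at 20000 to 50000 tags, as in OAZ1 and SRM. No site with a percentage below these was listed at such depths. The order by number of deletions was different, with OAZ1 (855) and SRM (843) first, then ODC1 (455), OAZ2 (308), AZIN1 (233), AMD1 (121), SMS (84) and SAT1 (70). Among the strongest 3′UTR sites of 6371 genes these were at percentiles 97.4, 97.2, 92.3, 86.9, 81.6, 64.4, 50.7 and 43.0, and the median gene had 82 deletions. OAZ1 and SRM also had high tag counts, at percentiles 94.9 and 92.6 of the same genes, whereas SMS and SAT1 were at 20.5 and 29.3.

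**Figure D4:**
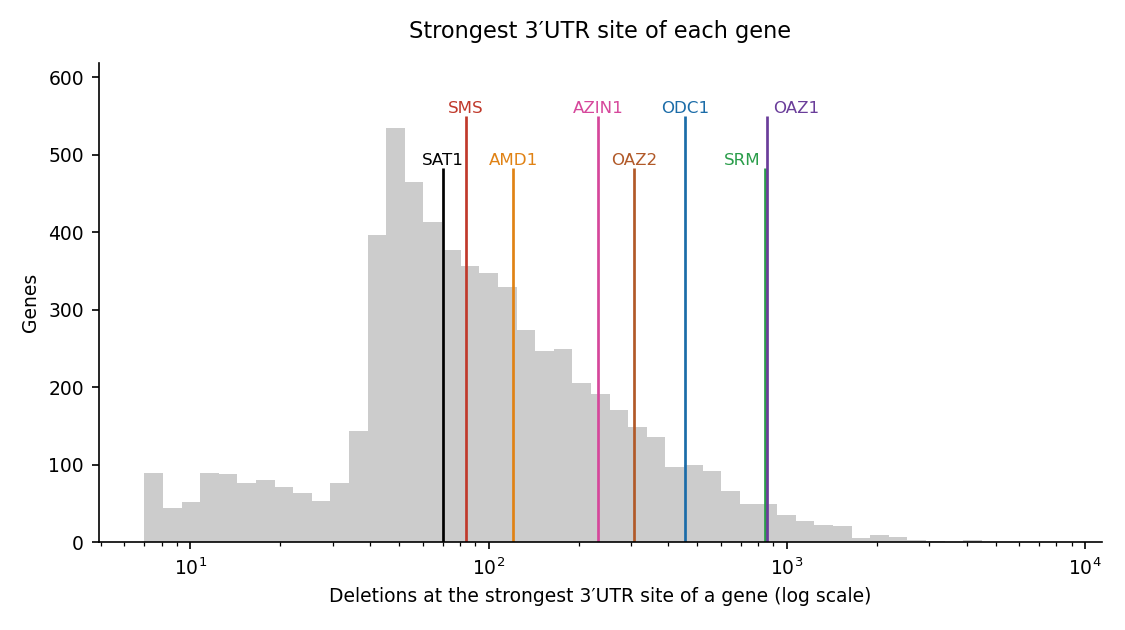
Number of deletions at the strongest 3′UTR site of a gene (x axis, log scale) for the 6371 genes with such a site (grey histogram, y axis, number of genes). Vertical lines mark the 8 polyamine genes, from SAT1 with 70 to OAZ1 with 855, and the lines of SRM (843) and OAZ1 almost coincide.

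Many sites of the members lay close to transcript ends. A 3′UTR site within 100 nt of an annotated end was found in 7 of 8 members and in 24.9% of all protein-coding genes. All 8 members had a 3′UTR site, and among the 6371 genes with such a site 4998 had one that close to an end. Of the 55 member 3′UTR sites, 35 lay that close (63.6%, interval 50.4 to 75.1%), compared with 65.9% of 21222 in the list. With only the canonical transcript of each gene, these shares were 41.5% of 53 (interval 29.3 to 54.9%) and 50.2% of 20420. The median distance to the end was 52 nt in the members and 38 nt in the list. RNA with a natural poly(A) tail can bind oligo(dT) as well as RNA tailed during the procedure, and its part in the sites near ends was not tested.

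The share of member sites with a poly(A) signal nearby was close to that of all sites. AATAAA or ATTAAA was present in the 51-nt window centred on the deletion at 36 of the 55 member 3′UTR sites (65.5%, interval 52.3 to 76.6%), compared with 65.4% of the 21222 and with 7.18% of 668177 windows of the same length that tile the canonical 3′UTRs of protein-coding genes. Only the transcript strand was searched. All 36 held AATAAA, so that it too was in 65.5% of the member windows, compared with 52.7% of the windows in the list. The 8 canonical 3′UTRs contain 20 AATAAA, of which 10, in 6 members, had a low-percentage site within 50 nt, and 6 ATTAAA, of which 2 had one, both around the single SMS site. RBMS3 sites thus marked some signals of these 3′UTRs and left others, as in ODC1, AMD1, AZIN1 and SAT1, without a listed site. A 3′UTR site with AATAAA in its window was present in 6 of 8 members and in 66.8% of the 6371 genes with a 3′UTR site. The share of signals with a site nearby was not computed for other genes. Of the 44 member 3′UTR sites with a signal within 50 nt, 23 had it downstream of the deletion, 5 had the deletion inside it and 16 had it upstream, against 8935, 2251 and 5310 of 16496 in the list.

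**Figure D5:**
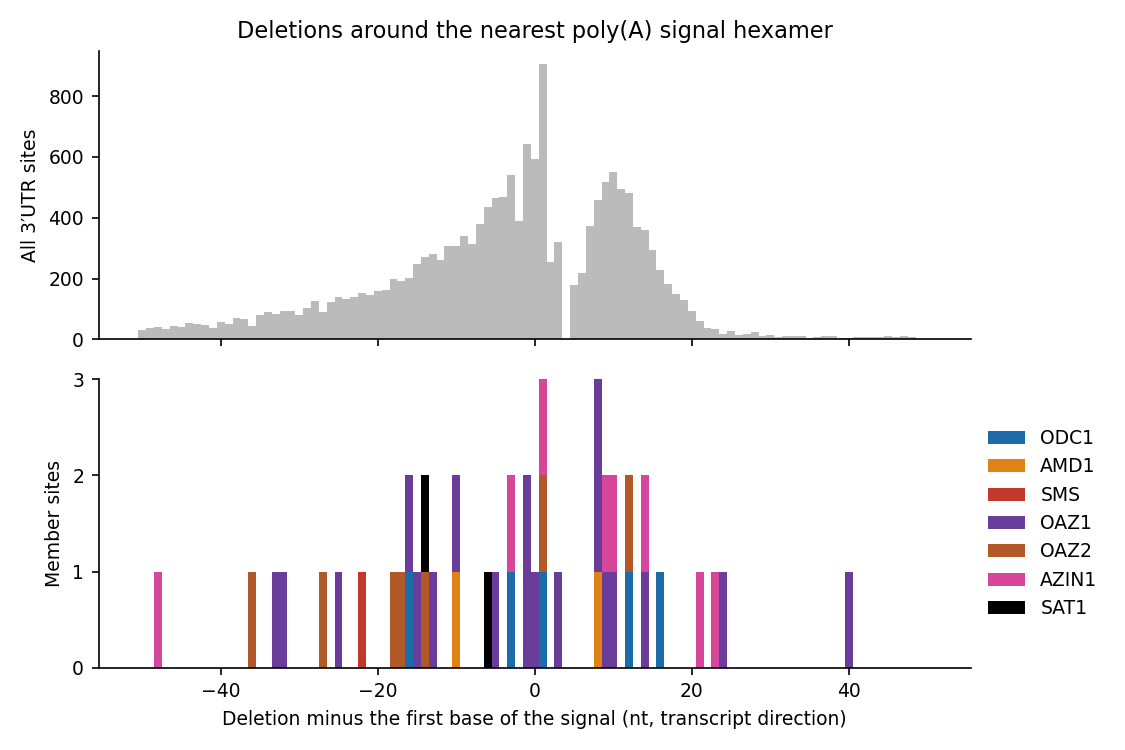
Position of the deletion relative to the first base of the nearest AATAAA or ATTAAA (x axis, nt in transcript direction, negative where the deletion comes first) for the 3′UTR sites with a signal within 50 nt, as numbers of sites: 16496 in the whole list (top, grey) and 44 in the polyamine genes (bottom, coloured by gene). SRM has no such site. The member sites lie on both sides of the signal, 23 before it and 16 after it.

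In the windows around the member 3′UTR sites, the AUA motif that the study tied to RBMS3 was found only in matches that contain AATAAA. The paper also reports AATAAA itself as the most significant motif among its RBMS3 sites. The AUA motif was searched on the transcript strand as 12 heptamers, of which 3 contain AATAAA. They have A, G or T first, then A or T, then ATA, then A or T, then A. A match was found in 22 of 55 windows (40%, interval 28.1 to 53.2%), compared with 51.7% of the windows in the list and 8.72% of the tiled windows. The 22 were 12 in OAZ1, 5 in ODC1, 3 in AZIN1 and 2 in SAT1, and AMD1, SRM, SMS and OAZ2 had none. A match that does not contain AATAAA was found in 0 of 55 windows (upper limit 6.53%), compared with 15.5% in the list and 5.45% of the tiled windows. A shorter core, ATA with A or T on either side, was found in 72.7% of the member windows (interval 59.8 to 82.7%). Every AATAAA contains this core, so the 36 of 55 windows with AATAAA (65.5%) match it by definition. Its share in the list and in the tiled windows is not given, so the 72.7% is no separate evidence for the motif. The base before AATAAA decides whether the signal counts as a match. The third OAZ1 signal and those at the ends of AMD1 and OAZ2 follow a C, as the printed stretches show, and so are no match. Of the 20 AATAAA in the 8 3′UTRs, 4 follow a C, and all 4 had a low-percentage site within 50 nt. Such a site was near 3 of the 6 that follow an A, 1 of the 3 that follow a G and 2 of the 7 that follow a T, a comparison made after the values were seen.

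T was the deleted base at 34 of the 55 member 3′UTR sites (61.8%, interval 48.6 to 73.5%) and at 65.5% of those in the list. A followed in 12 (21.8%) against 21.5%. The strongest site of 7 of the 8 members was a deleted T, the exception being the A of SMS, and T was deleted at the strongest site in 75.9% of the 6371 genes. The windows had a median of 70.6% A and T in the members and 72.5% in the list.

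Copies of the genes were checked. None of the 10 annotated pseudogenes named for the members held a site on either strand, no listed site lay on the opposite strand of a member gene, and each of the 56 windows occurred once in the 25 chromosome sequences of hg38.

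Among 28 other genes of polyamine metabolism, its methyl donor cycle, transport and hypusine formation, 10 had a same-strand site and 9 a 3′UTR site, beside the 37.6% and 31.8% of all protein-coding genes. MAT2B, the regulatory subunit of the enzyme that makes S-adenosylmethionine, held 19 sites, all within 100 nt of an end, with 809 of 26181 tags at the strongest (3.09%, interval 2.89 to 3.31%). ATP13A3, a polyamine transporter, held 15, with 269 of 8790 tags at the strongest (3.06%), and ENOPH1, of the methionine salvage pathway, held 6, with 269 of 9067 tags (2.97%). EIF5A, the translation factor that carries hypusine made from spermidine, had 1 site with 108 of 1794 tags (6.02%), and its paralog EIF5A2 had 2, with 53 of 943 tags at the stronger (5.62%). ADI1 (2 sites, 71 of 847 tags), APIP (3 sites, 54 of 1419 tags), SLC3A2 (1 3′UTR site, 54 of 1040 tags) and ATP13A2 (1 site, 37 of 2142 tags) each had at least 1 3′UTR site, given here with the tags of the strongest, and SLC22A3 had a site outside the 3′UTR. No site was listed in SMOX and PAOX, the polyamine oxidases, nor in AZIN2, OAZ3, SAT2, MAT2A, MTAP, DHPS or DOHH. An unlisted gene may be unbound or too thinly covered, and these cannot be told apart here.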

How the data were processed

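RBMS3 CLIP-seq libraries of 2 biological replicates (1 group) were processed by the authors with the CLIP Tool Kit: reads with molecular identifiers were aligned to hg38 and collapsed to unique tags, the tags of both replicates were pooled, and deletion sites were kept by a false discovery rate under 10% and a fold over 10 that is not defined further. Tool versions are not given in the sources used here. The deposited values are counts, not normalized: for each 21-nt interval, the tags covering its central base and those with the deletion. Total depth per library was not analysed here, so depth is given per site. Percentages and 95% Wilson intervals were computed from these counts. No test between samples was possible.

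Sites were placed by the central base and strand on GENCODE release 44 over all transcripts, in the order 3′UTR, 5′UTR, coding sequence, noncoding exon, intron. The canonical transcript is the one Ensembl names as such. Distance to an end ran to the nearest downstream 3′ end of a transcript of the gene with a 3′UTR. Motifs were sought 25 nt to each side of the deletion, and sites within 50 nt of each other formed a group. Fewer than 10 deletions were listed at 1819 sites. Functions were tested on simulated data, where 200 of 200 simulated positions were recovered. The text names all 8 members and the other pathway genes with a 3′UTR site. Members, lists and alternatives were chosen with earlier results of these data known. The alternatives were limits on deletions and percentage, strand, placement, annotation, distance, window, grouping and motif. Python 3.11.15, numpy 2.4.6, scipy 1.17.1 and pysam 0.24.0 were used.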

Additional observations from a re-analysis of the deposited data

How the results depend on the processing

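When a deletion in at least 10% of tags was required, 4 members had a site left, with 6 sites in 6 groups and a median deletion percentage of 62.1% (1.27% over all 56). The 3′UTR share was then 83.3%, T was deleted at 33.3%, and 5 of the other pathway genes had a site. An end within 100 nt, a poly(A) signal and the AUA motif were each found at 20% of the 3′UTR sites left. The 3′UTR share was 100% with at least 20 or 50 deletions, or under 30% of tags. The share within 100 nt of an end was 41.5% with 1 representative transcript per gene, and 49.1% lay within 50 nt. The poly(A) signal was found in 30.9% and 78.2% of windows with 10 and 50 nt on each side, in 50% with 1 site per group and, an alternative chosen after seeing the data, in 80% with 10 variants added. The AUA motif was found in 18.2% with 10 nt on each side, 25% with 1 site per group and 0% without matches that contain AATAAA. With a shorter core, which every AATAAA contains, it was found in 72.7%. Groups numbered 35 when joined within 10 nt, and 36 sites remained without OAZ1 (chosen after seeing the data). These settings change which sites, windows or ends are counted. The other 50 values stayed within their limits and none reversed.

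No paired analysis was possible because both replicates, which make up the 1 group, are pooled in every value, and for that reason no replicate was left out. Depth limits the 5 sites at or above 30%, which rest on at most 90 tags.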
